A study of Mus musculus with 2 samples.

Results

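The genes described here are 10 genes of elastic fibres: Eln, Fbn1, Mfap4, Mfap5, Ltbp4, Fbln1, Fbln2, Fbln5, Lox and Loxl1. They were chosen by symbol among the 27998 genes that were counted, and all 10 were found. An elastic fibre has a core of cross-linked elastin laid down on a scaffold of fibrillin microfibrils. Cells secrete tropoelastin, fibulins and microfibril proteins bring it to the scaffold, and lysyl oxidases join the chains into a rubber-like polymer. In the lung these fibres run through arterial walls, airways and alveolar septa and let them recoil.

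The cells came from lungs of C57BL/6J mice aged 10 to 12 weeks, from 1 KO library and 1 WT library of a study whose title names a mouse model of hereditary haemorrhagic telangiectasia type 2, an inherited disorder of vessel malformation. The labels do not name the gene that was knocked out, and the sources used here do not give how many animals stand behind each library. Lungs were digested with dispase for 1 h and DNase for 30 min, cells were sorted as VE-cadherin positive and CD45 negative, and libraries were made with 10x Genomics 3′ version 3 chemistry, which counts the 3′ ends of transcripts by unique molecular identifiers (UMIs). With 1 library in each group there was no replicate check of any difference between KO and WT: all intervals below are 95% intervals for counting error only, and no p-value is given.

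After filtering, 1314 KO cells with a median of 8654 UMIs and 2708 WT cells with a median of 5423 UMIs remained, from 17864581 and 25667220 deposited UMIs. Endothelial cells were 39.6% of the KO cells and 56.9% of the WT cells, although VE-cadherin, the product of Cdh5, is an endothelial protein. Cdh5 stood at 1989 CPM in KO gCap-like cells and 1894 CPM in WT gCap-like cells, against 2.62 CPM in KO and 23.9 CPM in WT adventitial-type fibroblasts. CPM here means a gene's UMIs for every 1000000 UMIs summed over the cells of a class. Acvrl1, the receptor gene of the human disease, stood at 1215 CPM in KO and 1316 CPM in WT gCap-like cells, and at 409 CPM (362 to 461) in an endothelial cluster that was almost wholly KO. Cells were clustered without the 10 genes and named from marker genes that do not include them. Adventitial-type fibroblasts (51 KO and 67 WT cells) carried Pi16, at 658 CPM in KO and 893 CPM in WT. Alveolar-type fibroblasts (33 KO and 60 WT cells) carried Npnt, at 2943 CPM in KO and 4656 CPM in WT. Smooth muscle-like cells (54 KO and 81 WT) carried Acta2, at 14925 CPM in KO and 10878 CPM in WT. The 2 libraries shared 12 barcodes. After filtering these were 1 KO and 2 WT gCap-like cells and 7 KO and 6 WT cells of an unnamed cluster led by Gm9844, and no fibroblast or smooth muscle-like cell. Cells with Xist alone and cells with Y-linked UMIs alone were both present in KO, whereas nearly all typed WT cells had Xist alone, and values by sex of the KO cells are given beside the main differences.

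Promoter sequences are shown for 4 of the genes, Ltbp4, Fbln2, Fbn1 and Fbln5, because these were higher in arterial-like cells than in other endothelial cells of both libraries. Each is the stretch of 250 bases before a gene start in RefSeq on GRCm38.p6, written 5′ to 3′ on the gene's strand. Capitals mark matches to 1 of 5 letter patterns searched on both strands: the AP-1 pattern TGANTCA, the GC box GGGCGG, the GC-rich SMAD1/5 pattern GGCGCC, the TEAD pattern GGAATG and the RBPJ pattern TGGGAA. RBPJ is the DNA-binding factor of Notch signalling and SMAD1/5 carry BMP signals to the nucleus.
Ltbp4, chr7:27337613-27337862, minus strand: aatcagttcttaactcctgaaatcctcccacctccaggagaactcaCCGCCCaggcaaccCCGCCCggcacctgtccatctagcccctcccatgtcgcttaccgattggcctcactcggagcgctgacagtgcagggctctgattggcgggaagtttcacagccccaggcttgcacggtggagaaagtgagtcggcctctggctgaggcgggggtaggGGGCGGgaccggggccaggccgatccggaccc
Fbln2, chr6:91212514-91212763, plus strand: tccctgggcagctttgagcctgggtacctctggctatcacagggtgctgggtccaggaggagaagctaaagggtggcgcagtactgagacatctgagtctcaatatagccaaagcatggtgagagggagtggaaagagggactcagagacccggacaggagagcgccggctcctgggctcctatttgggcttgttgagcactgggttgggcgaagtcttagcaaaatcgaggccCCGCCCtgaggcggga
Fbn1, chr2:125506439-125506688, minus strand: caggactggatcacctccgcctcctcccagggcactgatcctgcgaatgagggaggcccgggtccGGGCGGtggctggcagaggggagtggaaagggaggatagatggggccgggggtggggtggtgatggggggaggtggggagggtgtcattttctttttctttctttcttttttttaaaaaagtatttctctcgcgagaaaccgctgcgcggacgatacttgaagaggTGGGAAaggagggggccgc
Fbln5, chr12:101819120-101819369, minus strand: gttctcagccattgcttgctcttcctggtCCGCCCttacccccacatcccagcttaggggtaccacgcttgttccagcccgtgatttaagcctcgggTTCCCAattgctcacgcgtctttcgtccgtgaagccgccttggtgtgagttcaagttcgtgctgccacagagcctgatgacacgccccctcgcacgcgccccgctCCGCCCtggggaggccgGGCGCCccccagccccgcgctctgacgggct
The GC box was found 3 times for Ltbp4, 2 times for Fbln5 and 1 time each for Fbln2 and Fbn1, and 32.7% of 32851 promoters of the same length hold it. The RBPJ pattern was in the Fbn1 window, 19 bases before the start, and in the Fbln5 window, 153 bases before it; 21.6% of all promoters hold this pattern. The SMAD1/5 pattern was found 1 time, for Fbln5, 31 bases before the start, and 9.59% of all promoters hold it. No AP-1 or TEAD letters were in these 4 windows, against 6.75% and 12.6% of all promoters. The table holds further starts for Ltbp4 and Fbln5, where SMAD1/5 letters were also found, and these are not shown. A match is only a run of letters and no measure of binding.

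Eln encodes tropoelastin, the monomer of the fibre core, and lies on chromosome 5 (GRCm38, 134702593 to 134747323, minus strand; ENSMUSG00000029675). The 2 libraries held 25875 KO and 12460 WT UMIs of it. In KO it was at 20828 CPM (20231 to 21438) in alveolar-type fibroblasts, 16027 CPM (15695 to 16365) in smooth muscle-like cells and 9822 CPM (9601 to 10047) in adventitial-type fibroblasts. In WT it was at 4815 CPM (4611 to 5027) in alveolar-type fibroblasts, 5474 CPM (5290 to 5662) in smooth muscle-like cells and 3800 CPM (3665 to 3937) in adventitial-type fibroblasts. Among classes of at least 20 cells these 3 led the order in both libraries without overlap of intervals, with alveolar-type cells at the top in KO and smooth muscle-like cells at the top in WT. Endothelial cells also carried Eln. Venous-like cells had 4155 CPM in KO (13 cells) and 2254 CPM in WT (54 cells), and arterial-like cells had 971 CPM in KO (21 cells) and 619 CPM in WT (74 cells). gCap-like cells, the general capillary endothelium, had 385.6 CPM in KO and 464 CPM in WT, and aCap-like cells, the aerocytes of the gas-exchange surface, had 102 CPM in KO and 88.5 CPM in WT. AT2-like cells, the surfactant-making epithelium, were lowest at 36.2 CPM in KO and 19.3 CPM in WT.

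**Figure D1:**
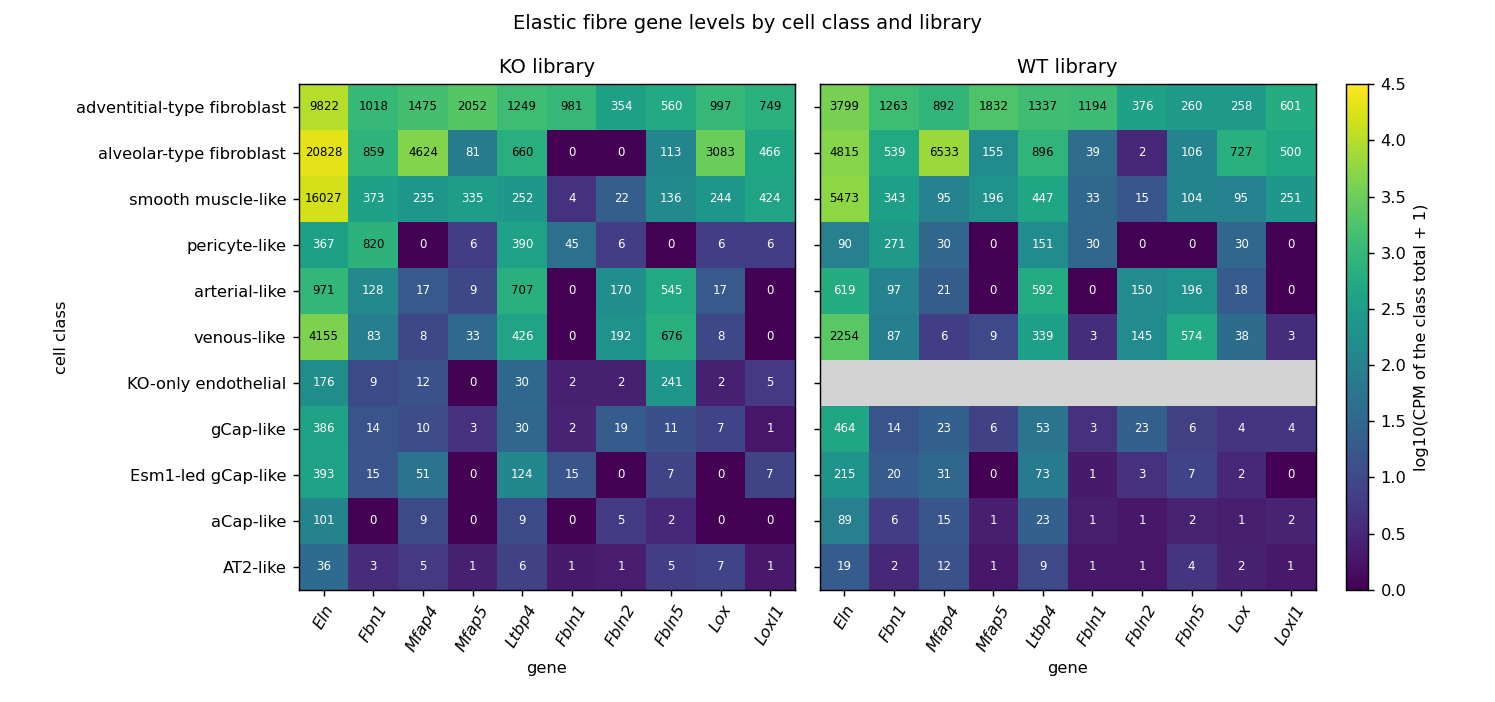
Level of each elastic fibre gene (columns) in each cell class (rows), KO library left and WT library right, coloured by log10(CPM of the class total + 1) with the CPM printed in each box; grey marks a class not shown for WT; values are to be read within a gene. Eln reaches 20828 CPM in KO alveolar-type fibroblasts and 5474 CPM in WT smooth muscle-like cells, while most other genes peak in adventitial-type fibroblasts.

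The microfibril genes stood high in fibroblasts. Fbn1 (chromosome 2, ENSMUSG00000027204) encodes fibrillin-1, the main rod of the microfibril. In adventitial-type fibroblasts it was at 1018 CPM (947 to 1092) in KO and 1263 CPM (1186 to 1343) in WT. In alveolar-type fibroblasts it was at 859 CPM (741 to 990.0) in KO and 539 CPM in WT, and in pericyte-like cells at 819.6 CPM (692 to 964) in KO and 271 CPM in WT. The adventitial-type level was the highest of the classes of at least 20 cells in WT, whereas the levels of these 3 classes in KO had overlapping intervals. Fbn1 stood at 373 CPM in KO and 343 CPM in WT smooth muscle-like cells. Mfap5 (chromosome 6, ENSMUSG00000030116) encodes MAGP-2, a small protein bound along fibrillin. It was highest in adventitial-type cells, with 2052 CPM in KO and 1832 CPM in WT. Smooth muscle-like cells followed with 335 CPM in KO and 196 CPM in WT. Alveolar-type cells had 81.4 CPM in KO and 155 CPM in WT, and in WT these last 2 classes overlapped. Mfap4 (chromosome 11, ENSMUSG00000042436), whose product binds fibrillin and tropoelastin, had the opposite place, with 4624 CPM in KO and 6533 CPM in WT alveolar-type fibroblasts. Ltbp4 (chromosome 7, ENSMUSG00000040488) encodes a latent TGF-beta binding protein that holds TGF-beta in the matrix and guides fibulin-5 to microfibrils. It spanned both compartments: adventitial-type fibroblasts had 1249 CPM in KO and 1337 CPM in WT, and arterial-like endothelial cells had 707 CPM in KO and 592 CPM in WT. A second feature with the symbol Ltbp4 (ENSMUSG00000108715) had 0 UMIs in both libraries.

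The 3 fibulins divided the classes differently. Fbln1 (chromosome 15, ENSMUSG00000006369), a fibulin of basement membranes and elastic fibres, stood at 981 CPM (912 to 1054) in KO and 1194 CPM (1119 to 1272) in WT adventitial-type fibroblasts. In the other classes of at least 20 cells it was at most 45.2 CPM in KO and 39.4 CPM in WT. Fbln2 (chromosome 6, ENSMUSG00000064080), a fibulin of vessel walls, was at 354.5 CPM in KO and 376 CPM in WT adventitial-type fibroblasts and at 170 CPM in KO and 149.5 CPM in WT arterial-like cells. It had a UMI in 0 of 33 KO alveolar-type cells, which allows a share of cells with a UMI of up to 9.09% by a floor of 3 counts, and in 1 of 60 WT cells. Fbln5 (chromosome 12, ENSMUSG00000021186) encodes fibulin-5, which tethers tropoelastin to microfibrils and binds integrins of the vessel wall. In WT its highest class was venous-like endothelium, at 573.5 CPM (496 to 659) against 260.1 CPM (226 to 298) in WT adventitial-type fibroblasts. In KO the adventitial-type level of 559.8 CPM (508 to 615.5) overlapped that of arterial-like cells, 545 CPM (420 to 696), and of venous-like cells, 676 CPM (537 to 840.0) in 13 cells.

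The cross-linking enzymes stood highest in fibroblasts. Lox (chromosome 18, ENSMUSG00000024529) encodes lysyl oxidase, which oxidises lysines of elastin and collagen. It was highest in alveolar-type fibroblasts, with 3083 CPM (2856 to 3323) in KO and 727 CPM (649 to 812) in WT. Adventitial-type fibroblasts followed with 997 CPM in KO and 258 CPM in WT, and smooth muscle-like cells had 244 CPM in KO and 94.7 CPM in WT. Loxl1 (chromosome 9, ENSMUSG00000032334), the lysyl oxidase-like enzyme tied to elastic fibre upkeep, was at 749.5 CPM in KO and 601 CPM in WT adventitial-type fibroblasts. Endothelial classes held less of either. Lox was at 17.0 CPM in KO (2 UMIs) and 17.6 CPM in WT arterial-like cells, at 8.34 CPM in KO (1 UMI) and 37.6 CPM (20.1 to 64.4) in WT venous-like cells, and at 6.98 CPM in KO and 3.72 CPM in WT gCap-like cells, beside 7.04 CPM in KO and 1.57 CPM in WT AT2-like cells. Loxl1 had 0 UMIs in arterial-like cells of both libraries and stood at 0.873 CPM in KO and 3.72 CPM in WT gCap-like cells.

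Arterial-like endothelial cells carried more of the elastic fibre genes than other endothelial cells did, in both libraries. A gene was called higher or lower when its levels differed by at least 1.5-fold and their intervals did not overlap. Genes entered this rule when their level averaged 10 CPM or more over both sides. In KO, 21 arterial-like cells were set against 499 other endothelial cells: 5 of the 7 genes tested were higher and 0 were lower, where 4.43% of all genes tested were called higher and 4.31% lower. In WT, with 74 arterial-like and 1467 other endothelial cells, the same 5 of 7 genes were higher and 0 lower, where 6.26% of all genes were called higher and 8.62% lower. The median log2 ratio of the genes tested was 2.29 in KO and 2.39 in WT, beside -0.04 and -0.06 over all genes tested.

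Ltbp4 showed the widest gap. It was at 707 CPM in KO arterial-like cells, against 77.3 CPM in other KO endothelial cells, a ratio of 9.14 (6.99 to 11.9). In WT it was at 592 CPM in arterial-like cells, against 63.0 CPM in the others, a ratio of 9.41 (7.90 to 11.2). The intervals of the levels lay far apart in both libraries. The other endothelial cells included lymphatic-like cells, 7 in KO and 3 in WT. All 7 KO lymphatic-like cells had Ltbp4, at a median per cell of 1181 CPM against 638 CPM in KO arterial-like cells. Their medians of Fbn1, Fbln2 and Fbln5 were also higher, and that of Eln was lower, at 176 CPM against 784 CPM. Fbn1 was at 128 CPM in KO arterial-like cells, against 17.6 CPM in other KO endothelial cells, a ratio of 7.27 (3.77 to 13.3), and the WT ratio was 6.15 (4.02 to 9.19). Fbln2 gave ratios of 7.04 (4.03 to 11.8) in KO and 7.54 (5.33 to 10.5) in WT. These 2 genes rest on few molecules in the KO arterial-like cells, 15 UMIs of Fbn1 and 20 of Fbln2, and without the 5 cells with most Fbln2 on each side the KO call of Fbln2 was lost, with a log2 ratio of 1.90. Fbln5 was at 545 CPM in KO arterial-like cells, against 111 CPM in other KO endothelial cells, a ratio of 4.90 (3.67 to 6.44), and the WT ratio was 5.24 (3.94 to 6.90). Eln gave ratios of 2.13 (1.74 to 2.59) in KO and 1.55 (1.34 to 1.79) in WT. The WT call of Eln was lost under stricter and looser cell filters, after thinning and without the 5 top cells, with log2 ratios of 0.31 to 0.57. Mfap4 and Lox passed the level filter and were not called in either library, although Lox was called higher with looser cell filters in both (log2 ratios of 2.97 in KO and 2.01 in WT), and Mfap5, Fbln1 and Loxl1 stayed under it.

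Venous-like cells, the other large-vessel endothelium, were part of the comparison cells. Their Eln, at 4155 CPM in KO and 2254 CPM in WT, stood above that of arterial-like cells in both libraries with intervals apart. Their Fbln5 stood at 676 CPM in KO and 573.5 CPM in WT, against 545 CPM in KO and 196 CPM in WT arterial-like cells, with intervals apart in WT and overlapping in KO. Their Ltbp4 stood at 425.5 CPM in KO and 339 CPM in WT, and their Fbln2 at 192 CPM in KO and 145 CPM in WT. In WT the Fbln2 intervals of arterial-like and venous-like cells overlapped. Venous-like Fbn1 stood at 83.4 CPM (40.0 to 153) in KO and 86.9 CPM in WT. Arterial-like Fbn1 stood at 128 CPM (71.5 to 211) in KO and 96.75 CPM in WT. The Fbn1 intervals of these classes overlapped in both libraries. Shares of cells with at least 1 UMI were compared after every cell had been thinned to 1500 UMIs. Ltbp4 was then in 65.0% of KO and 56.9% of WT arterial-like cells, against 0.368% of KO and 2.49% of WT AT2-like cells. Unthinned, these shares were 100% of KO and 81.1% of WT arterial-like cells, and 10.0% of KO and 13.6% of WT AT2-like cells, whose median depths were 19565 UMIs in KO and 17643 in WT. Thinning left out 1 KO and 2 WT arterial-like cells and 56 KO and 20 WT AT2-like cells. The sort was for endothelial cells, so the arterial-like class is a sorted sample, and all shares are of cells that passed it.

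**Figure D2:**
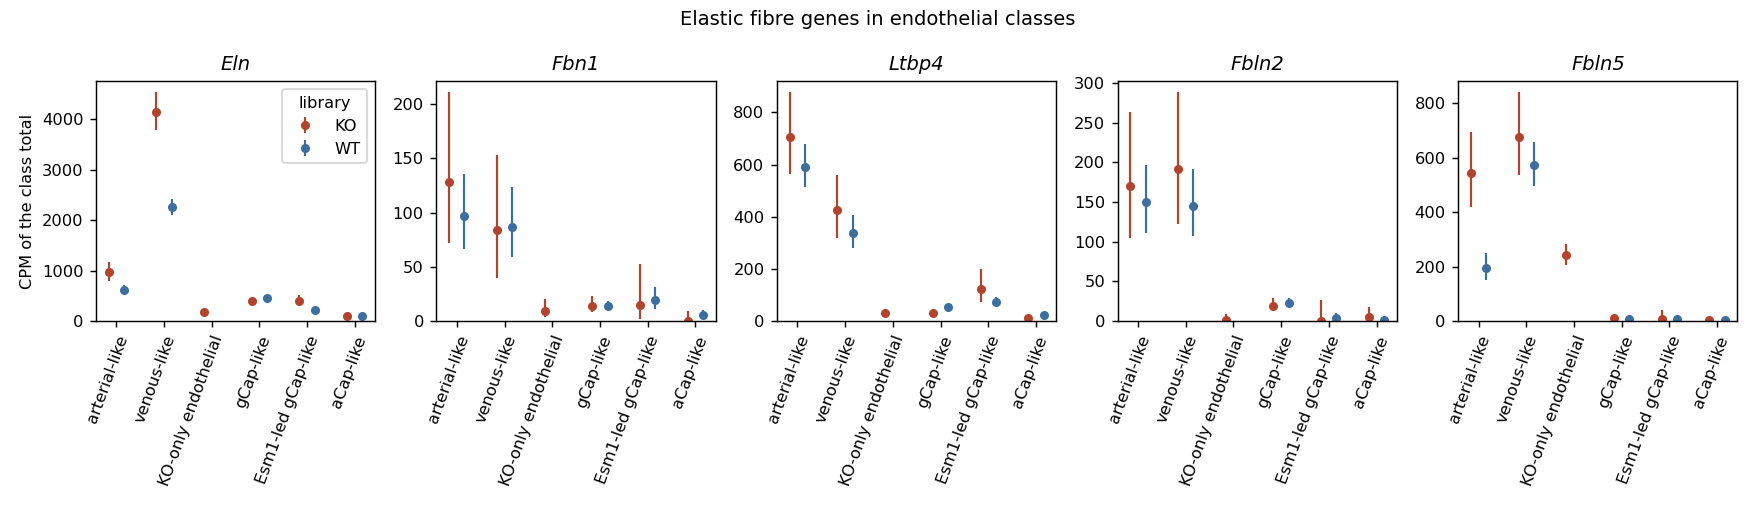
Level of Eln, Fbn1, Ltbp4, Fbln2 and Fbln5 by endothelial class, KO left of WT, in CPM on a linear axis of its own for each gene, with 95% Poisson intervals. Ltbp4 stands at 707 CPM in KO and 592 CPM in WT arterial-like cells and at 29.7 CPM in KO and 53.4 CPM in WT gCap-like cells. Lymphatic-like cells are not shown.

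Adventitial-type and alveolar-type fibroblasts differed in the mRNA levels of several of the 10 genes, while others were high in both. In KO, of 10 genes tested, 6 were higher and 3 lower in adventitial-type cells, where 7.43% of all genes tested were higher and 11.4% lower. In WT, 5 of 10 were higher and 2 lower, where 7.57% of all genes were higher and 11.9% lower. The median log2 ratio of the 10 was 0.80 in KO and 0.90 in WT, beside -0.26 and -0.23 over all genes tested.

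The fibulins and Mfap5 stood on the adventitial side. Fbln1 had 750 UMIs in KO adventitial-type cells and 0 in KO alveolar-type cells, at least 72.4-fold higher against a floor of 3 counts over the group. In WT it had 1194 CPM against 39.4 CPM, a ratio of 30.3 (18.8 to 52.3). Fbln2 had 271 UMIs against 0 in KO, at least 26.1-fold higher on the same floor, and 299 UMIs against 1 in WT, a ratio of 162 (28.9 to 6431). Between these 2 fibroblast types, both genes were found almost wholly in the adventitial one; of all 408 KO and 521 WT UMIs of Fbln2, 271 in KO and 299 in WT lay in adventitial-type cells, and endothelial cells held many of the rest. Mfap5 was at 2052 CPM against 81.4 CPM in KO, a ratio of 25.2 (15.9 to 42.7), and the WT ratio was 11.8 (9.24 to 15.3). Fbln5 gave ratios of 4.95 (3.31 to 7.74) in KO and 2.44 (1.77 to 3.44) in WT. Ltbp4, at 1.89 (1.59 to 2.27), and Loxl1, at 1.61 (1.3 to 2.01), were called in KO; their WT ratios of 1.49 and 1.2 were not called. After thinning, the KO calls of both and the WT call of Fbln5 were lost, with log2 ratios of 0.63 for Ltbp4, 1.09 for Loxl1 and 0.74 for Fbln5. The WT ratio of Ltbp4 was called after thinning (log2 0.81) and without the 5 top cells (0.60). Fbn1 was called in WT, with a ratio of 2.34 (2.03 to 2.71), and not in KO, with 1.19 (1.01 to 1.4).

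Mfap4 and Lox stood on the alveolar side in both libraries. Mfap4 was at 1476 CPM in KO adventitial-type cells, against 4624 CPM in KO alveolar-type cells, a ratio of 0.319 (0.293 to 0.348). In WT it was at 892 CPM against 6533 CPM, a ratio of 0.137 (0.126 to 0.148). Lox gave ratios of 0.323 (0.291 to 0.359) in KO and 0.354 (0.296 to 0.424) in WT. Eln was lower in adventitial-type than alveolar-type cells of KO, with a ratio of 0.472 (0.455 to 0.489), and its WT ratio of 0.789 (0.746 to 0.835) was not called. AT2 markers, 7 genes of surfactant-making cells, summed to 2075 CPM in KO and 29844 CPM in WT alveolar-type fibroblasts, and more than 1% of the UMIs were AT2-marker UMIs in 3 of 33 KO and 10 of 60 WT cells. Without those cells, alveolar-type Mfap4 was at 4522 CPM in KO and 7210.0 CPM in WT, and every call of this comparison was kept in both libraries.

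Smooth muscle-like cells were set against all fibroblasts together. Adventitial-type cells gave most of that pool, 764504 of 1029659 UMIs in KO and 795891 of 1286511 in WT. Eln was at 16027 CPM in KO smooth muscle-like cells, against 12628 CPM in all KO fibroblasts together, a ratio of 1.27 (1.24 to 1.3). In WT it was at 5474 CPM against 4012 CPM, a ratio of 1.36 (1.31 to 1.42), so neither library reached 1.5-fold. The other 9 of 10 genes were lower in smooth muscle-like cells of both libraries and 0 were higher. The background was 9.97% of all genes higher and 10.4% lower in KO, and 9.3% higher and 10.3% lower in WT. The smallest ratios were those of Fbln1, with 2 UMIs in KO smooth muscle-like cells and a ratio of 0.00495 (0.000599 to 0.0180), and of Mfap4 in WT, with a ratio of 0.0345 (0.0261 to 0.0447). The mildest were those of Loxl1, at 0.633 (0.543 to 0.735) in KO, and of Fbln5 in WT, at 0.529 (0.396 to 0.698). The Loxl1 call in KO was lost under stricter cell filters (log2 -0.58) and after thinning (-0.74), and the Fbln5 call in WT after thinning (-0.92). Against alveolar-type fibroblasts alone, the levels of KO smooth muscle-like cells were 335 CPM against 81.4 CPM for Mfap5, 21.7 CPM against 0 UMIs for Fbln2, 136 CPM against 113 CPM for Fbln5 and 16027 CPM against 20828 CPM for Eln. KO Loxl1 overlapped, at 424 CPM against 466 CPM. In WT, Fbn1, Mfap4, Ltbp4, Lox and Loxl1 were lower than in alveolar-type cells with intervals apart, and Eln was higher. The WT intervals of Mfap5 (196 CPM against 155 CPM), Fbln1, Fbln2 and Fbln5 overlapped. The median log2 ratio of the 10 was -2.17 in KO and -1.80 in WT, beside 0.05 and 0.03 over all genes tested.

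Between the genotypes, Eln and Lox were higher in KO in both mesenchymal classes that had enough cells for calls. In adventitial-type fibroblasts 4 of 10 genes tested were higher in KO and 0 were lower, where 2.81% of all genes tested were higher and 3.69% lower. Smooth muscle-like cells had 5 of 10 higher and 2 lower, where 2.15% of all genes were higher and 3.72% lower. The median log2 ratio of KO over WT for all genes tested was -0.11 in adventitial-type and -0.13 in smooth muscle-like cells, so a ratio of 1 in these classes lies slightly above the middle gene. The medians of the 10 were 0.24 and 0.66.

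Eln was at 9822 CPM in KO adventitial-type fibroblasts, against 3800 CPM in WT ones, a ratio of 2.59 (2.48 to 2.70). In smooth muscle-like cells it was at 16027 CPM in KO, against 5474 CPM in WT, a ratio of 2.93 (2.81 to 3.05). The cells of the libraries overlapped widely, but most KO cells lay above the WT median. In adventitial-type cells the median per cell was 5276 CPM in KO and 2000 CPM in WT, with 39 of 51 KO cells above the WT median. Among smooth muscle-like cells the median was 12529 CPM in KO and 3539 CPM in WT, with 50 of 54 KO cells above the WT median. Lox was at 997 CPM (927 to 1070) in KO adventitial-type cells, against 258 CPM (223.5 to 295) in WT ones, a ratio of 3.87 (3.31 to 4.54). In smooth muscle-like cells, Lox was at 244 CPM (205 to 289) in KO, against 94.7 CPM (71.9 to 122) in WT, a ratio of 2.58 (1.89 to 3.58). Thinned to 1500 UMIs, Lox was in 64.0% of KO and 26.9% of WT adventitial-type cells, against 0.184% of KO and 0.249% of WT AT2-like cells. Unthinned, the shares were 90.2% of KO and 88.1% of WT adventitial-type cells, and thinning left out 1 KO and 0 WT adventitial-type cells. In smooth muscle-like cells the thinned share was 24.1% in KO and 13.6% in WT, and the Lox call was lost after thinning, with a log2 ratio of 0.87.

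**Figure D3:**
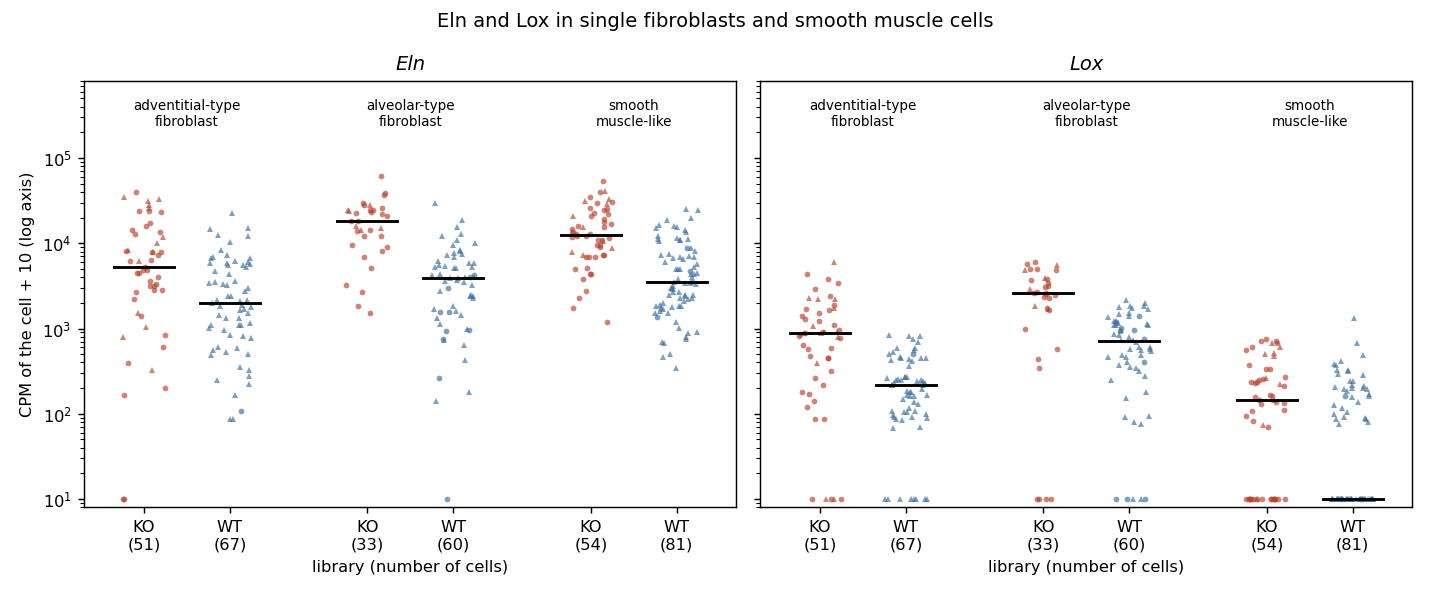
Eln and Lox in single fibroblasts and smooth muscle-like cells, KO left of WT, as CPM per cell plus 10 on a log axis; triangles are cells with Xist alone, circles the other cells and the black line the median. The Eln median is 12529 CPM in KO and 3539 CPM in WT smooth muscle-like cells, and 39 of 51 KO adventitial-type cells lie above the WT median.

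Mfap4 was also higher in KO in both classes. It was at 1476 CPM in KO and 892 CPM in WT adventitial-type fibroblasts, a ratio of 1.65 (1.5 to 1.82). Smooth muscle-like Mfap4 was at 235 CPM in KO and 94.7 CPM in WT, a ratio of 2.49 (1.81 to 3.45), and 64.6% of the KO UMIs and 67.2% of the WT UMIs lay in 5 cells each. After thinning, its direction in smooth muscle-like cells turned, with a log2 ratio of -0.12. Fbln5 was at 559.8 CPM in KO and 260.1 CPM in WT adventitial-type fibroblasts, a ratio of 2.15 (1.82 to 2.55). Of its KO UMIs 57.2% lay in 5 of the 51 cells, and without the 5 cells with most Fbln5 in each library the log2 ratio was 0.44 and no longer called. Smooth muscle-like Fbln5 was at 136 CPM in KO and 104 CPM in WT, a ratio of 1.3 (0.919 to 1.84) that was not called. Loxl1 was higher in KO smooth muscle-like cells, at 424 CPM against 251 CPM in WT ones, a ratio of 1.69 (1.37 to 2.08). Without the 5 cells with most Loxl1 in each library this was a log2 ratio of 0.56 and not called. Its adventitial-type ratio of 1.25 (1.1 to 1.41) was not called. Mfap5 was called higher in KO smooth muscle-like cells, at 335 CPM against 196 CPM in WT ones, a ratio of 1.71 (1.35 to 2.17), but 88.1% of its KO UMIs lay in 5 cells. It had UMIs in 10 of 54 KO and 22 of 81 WT cells, and its direction turned without the 5 top cells, with a log2 ratio of -0.77.

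Ltbp4 and Fbln1 were lower in KO smooth muscle-like cells. Ltbp4 was at 252 CPM (212 to 297) in KO, against 447 CPM (396 to 503) in WT, a ratio of 0.563 (0.456 to 0.693). Averaged over cells rather than UMIs, this was a log2 ratio of -0.57 and not called, and the call was also lost after thinning (-0.95). Fbln1 had 2 UMIs in KO and 20 in WT, a ratio of 0.111 (0.0126 to 0.457), and 75% of the WT UMIs lay in 5 cells. Its call was lost after thinning (log2 -1.42) and with clusters from all variable genes (-2.70). Dcn, a fibroblast marker, stood at 14.5 CPM in KO and 323 CPM in WT smooth muscle-like cells, with UMIs in 7.41% of KO and 11.1% of WT cells, and its part in these values was not tested. Neither was called in adventitial-type fibroblasts, where the ratio was 0.934 (0.855 to 1.02) for Ltbp4 and 0.822 (0.746 to 0.905) for Fbln1. Fbn1, with a ratio of 0.806 (0.733 to 0.886), Fbln2, with 0.944 (0.798 to 1.12), and Mfap5, with 1.12 (1.04 to 1.2), were not called there either, although Fbln2 was called higher in the 14 KO cells with Xist alone (log2 0.73). For smooth muscle-like cells, Fbn1, at 1.09 (0.894 to 1.32), and Fbln2, at 1.48 (0.572 to 3.97), were not called, and Fbln2 was called higher in the 11 KO cells with Xist alone (log2 2.40).

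Markers of other cells differed between the libraries in the same classes. The 7 AT2 markers summed to 1158 CPM in KO and 2017 CPM in WT adventitial-type fibroblasts, and to 1302 CPM in KO and 3006 CPM in WT smooth muscle-like cells. The 10 endothelial markers summed to 306 CPM in KO and 498 CPM in WT adventitial-type fibroblasts. The 5 mesothelial markers summed to 326 CPM in KO adventitial-type fibroblasts and were all at 0 in WT ones, and 2 KO cells held over 0.1% of their UMIs in them. With those 2 cells left out, a choice made after seeing the data, the log2 ratio of KO over WT was 1.40 for Eln and 2.00 for Lox, and the same number of genes, 4, was called higher. Ctgf, a matrix gene of activated mesenchymal cells, was at 1245 CPM in KO and 235 CPM in WT adventitial-type fibroblasts, and at 2410 CPM in KO and 517 CPM in WT smooth muscle-like cells. Tagln, a smooth muscle marker, was at 109.9 CPM in KO and 25.1 CPM in WT adventitial-type fibroblasts, and at 1022 CPM in KO and 266 CPM in WT alveolar-type fibroblasts, with UMIs in 78.8% of KO and 48.3% of WT alveolar-type cells. The part of these genes in the differences was not tested.

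Eln and Lox were higher in KO cells of either sex. Against WT cells with Xist alone, adventitial-type Eln gave a ratio of 3.59 in 14 KO cells with Xist alone and 2.47 in 29 KO cells with Y-linked UMIs alone. Lox gave 4.44 and 4.10 in the same cells. For smooth muscle-like cells, Eln gave 3.27 in 11 KO cells with Xist alone and 3.0 in 33 with Y-linked UMIs alone, and Lox gave 3.99 and 2.16. Fbln5 in adventitial-type fibroblasts gave 4.43 and 1.56. Smooth muscle-like Mfap5 gave 3.63 and 0.960, so its ratio stood above 1 in the KO cells with Xist alone and not in the other KO cells, and Loxl1 gave 2.28 and 1.45.

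**Figure D4:**
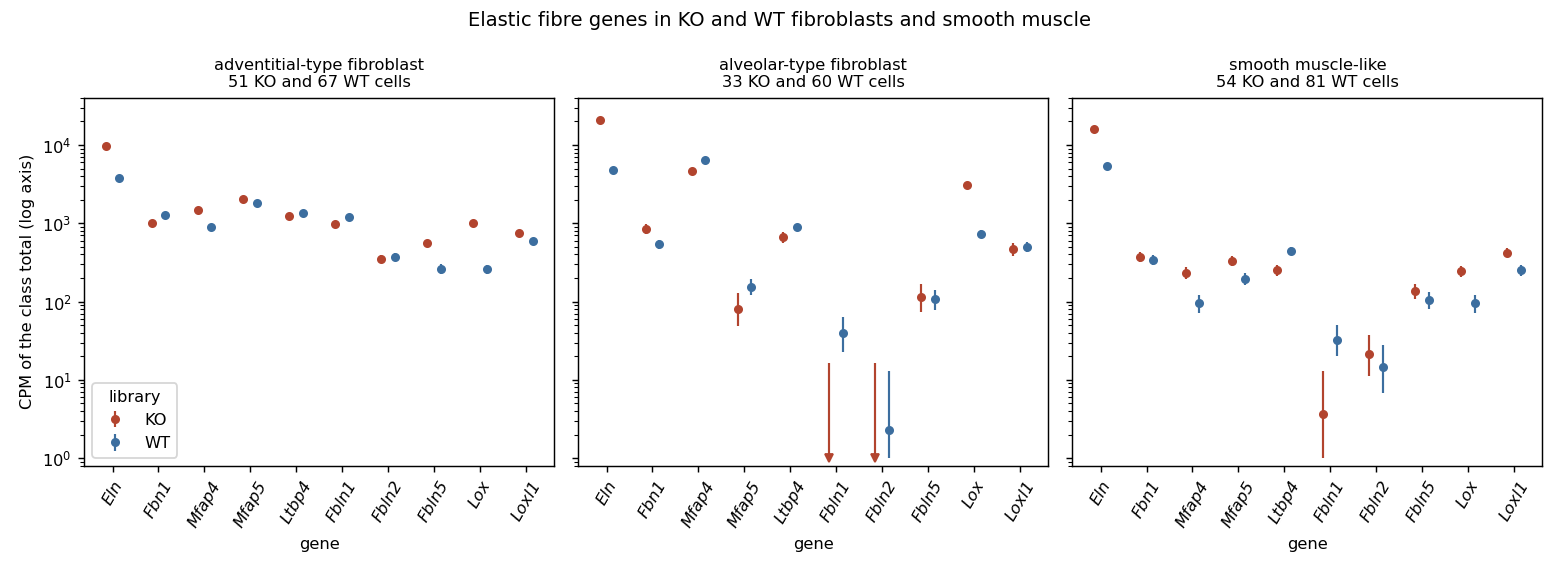
Level of each of the 10 genes in adventitial-type fibroblasts, alveolar-type fibroblasts and smooth muscle-like cells, KO left of WT, in CPM on a log axis with 95% Poisson intervals; arrows mark 0 UMIs and run down from the upper bound of the interval. Eln and Lox stand apart in all 3 classes, at 20828 CPM in KO and 4815 CPM in WT for Eln in alveolar-type fibroblasts.

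Alveolar-type fibroblasts held under 50 KO cells, so their values are given without calls. Eln stood at 20828 CPM (20231 to 21438) in KO and 4815 CPM (4611 to 5027) in WT. Lox stood at 3083 CPM (2856 to 3323) in KO and 727 CPM (649 to 812) in WT. The Eln median per cell was 18429 CPM in KO and 3946 CPM in WT, and 29 of 33 KO cells lay above the WT median. Left without the cells with over 1% AT2-marker UMIs, Eln stood at 20827 CPM in 30 KO cells and 5427 CPM in 50 WT cells, and Lox at 3104 CPM in KO and 781 CPM in WT. Against WT cells with Xist alone, the Eln ratio was 4.04 in 6 KO cells with Xist alone and 4.47 in 17 with Y-linked UMIs alone. Mfap4 stood at 4624 CPM (4345 to 4916) in KO and 6533 CPM (6294 to 6779) in WT, with intervals apart. Fbn1 stood at 859 CPM (741 to 990.0) in KO and 539 CPM (472 to 613) in WT. A small fibroblast cluster led by Enpp2 held 5 KO and 10 WT cells, with Eln at 20153 CPM in KO and 972 CPM in WT. Pericyte-like cells, 21 in KO and 23 in WT, had Fbn1 at 819.6 CPM (692 to 964) in KO and 271 CPM (179 to 394) in WT, and Eln at 367 CPM in KO and 90.3 CPM in WT. Acta2, a contractile marker, stood at 1803 CPM in KO and 50.2 CPM in WT pericyte-like cells.

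Among capillary endothelial cells, gCap-like and aCap-like cells were numerous enough for calls. In gCap-like cells 0 of 5 genes tested were higher in KO and 1 was lower, where 1.83% of all genes tested were higher and 2.84% lower. Eln was at 385.6 CPM (350.5 to 423) in 260 KO cells, against 464 CPM (440.2 to 490) in 821 WT cells, a ratio of 0.830 (0.744 to 0.925) that did not reach 1.5-fold. Ltbp4 was lower in KO, at 29.7 CPM (20.5 to 41.5) against 53.4 CPM (45.4 to 62.4) in WT, a ratio of 0.556 (0.372 to 0.809). This call was lost with stricter cell filters, after thinning and when averaged over cells, with log2 ratios of -0.52 to -0.92. Mfap4 was at 10.5 CPM in KO and 22.6 CPM in WT, a ratio of 0.463 (0.228 to 0.863) with overlapping levels. In aCap-like cells 0 of 3 genes tested were called, where 1.82% of all genes were higher and 1.85% lower. Their Eln was at 102 CPM in 70 KO cells and 88.5 CPM in 398 WT cells, a ratio of 1.15 (0.803 to 1.6). An Esm1-led gCap-like cluster of 31 KO and 190 WT cells was too small for calls, and its Eln stood at 393 CPM (295 to 512.5) in KO and 215 CPM (185 to 248) in WT, with intervals apart and KO on the other side of WT than in the main gCap-like class. The 7 AT2 markers summed to 3014 CPM in KO and 5653 CPM in WT gCap-like cells. Eln UMIs were also found in AT2-like cells, where it was the 1 gene tested, and were higher in KO, at 36.2 CPM (32.7 to 40.0) against 19.3 CPM (17.1 to 21.7) in WT. There 1.93% of all genes tested were higher and 2.35% lower.

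The larger-vessel endothelium had too few KO cells for calls. Arterial-like Fbln5 stood at 545 CPM (420 to 696) in 21 KO cells and 196 CPM (152 to 249.5) in 74 WT cells. Its thinned share was 40.0% of KO and 23.6% of WT arterial-like cells, against 1.65% of KO and 0.622% of WT AT2-like cells, and 71.9% of the KO UMIs lay in 5 cells. Arterial-like Eln stood at 971 CPM (801 to 1167) in KO and 619 CPM (538 to 708) in WT, and Ltbp4 at 707 CPM (563 to 877) in KO and 592 CPM (513 to 679.8) in WT. The Ltbp4 intervals overlapped, and those of Fbn1 and Fbln2 did too. Venous-like Eln stood at 4155 CPM (3798 to 4537) in 13 KO cells and 2254 CPM (2098 to 2418) in 54 WT cells, and all 13 KO cells lay above the WT median. Venous-like Fbln5 stood at 676 CPM (537 to 840.0) in 13 KO cells and 573.5 CPM (496 to 659) in 54 WT cells, with overlapping intervals.

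**Figure D5:**
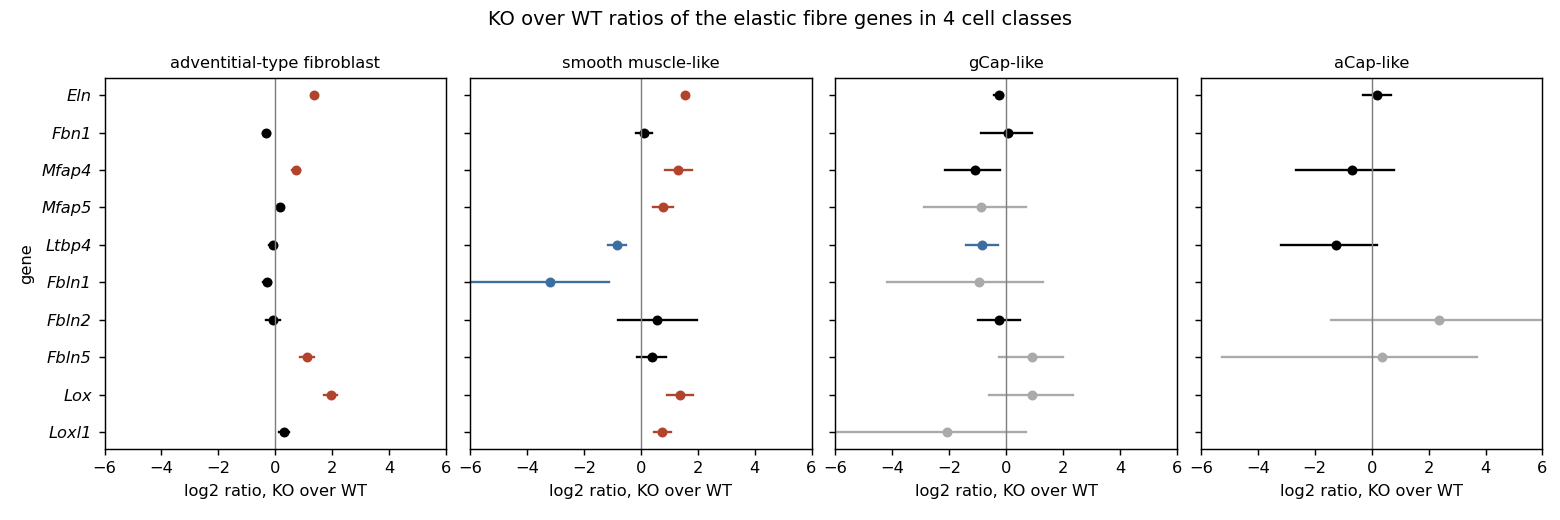
Log2 ratio of KO over WT for the 10 genes in 4 classes with at least 50 cells in each library. Bars are 95% intervals for counting error and end at the edge of the axis where an interval runs past it. Red is called higher in KO, blue lower, black not called and grey under the level filter. A gene with 0 UMIs in either library has no point, as for Fbn1, Fbln1, Mfap5, Lox and Loxl1 in aCap-like cells. Eln and Lox lie right of 0 in adventitial-type and smooth muscle-like cells, with Eln ratios of 2.59 and 2.93, and Eln lies left of 0 in gCap-like cells at 0.830.

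An endothelial cluster that was almost wholly KO, led by Apln, Igfbp3, Peg3 and Trp53i11, held 118 KO cells and 1 WT cell. It was not given a cell type name, and with 1 library a group it may be a feature of that library. Against the 402 other KO endothelial cells, 1 of 6 elastic fibre genes tested was higher and 4 were lower, where 7.18% of all genes tested were higher and 8.23% lower. Fbln5 was the higher one, at 241 CPM (205 to 281) in the cluster and 94.2 CPM (81.3 to 109) in the other cells, a ratio of 2.56 (2.06 to 3.17). Its UMIs were in 30 of 118 cells, and 5 cells held 47.8% of them. Thinned, 12.4% of the cluster's cells had a Fbln5 UMI, against 1.65% of KO AT2-like cells. The level was 234 CPM in 54 cells with Xist alone and 246 CPM in 45 cells with Y-linked UMIs alone. Eln was lower, at 176 CPM against 577 CPM, a ratio of 0.305 (0.249 to 0.369), and 60.3% of the cluster's Eln UMIs lay in 5 cells. Ltbp4 had a ratio of 0.234 (0.141 to 0.369) and Fbn1 one of 0.340 (0.119 to 0.788), a call lost with stricter cell filters, after thinning and when averaged over cells (log2 ratios of -0.65 to -1.27). Fbln2 had 1 UMI in the cluster, a ratio of 0.0377 (0.000943 to 0.216), a call lost after thinning (log2 -2.73). The other KO endothelial cells included the arterial-like and venous-like cells, whose Fbln5 stood above the cluster's, at 545 CPM and 676 CPM (13 cells). The 7 KO lymphatic-like cells had a median Fbln5 per cell of 322 CPM. In KO gCap-like cells Fbln5 stood lower, at 11.3 CPM. The cluster's Eln stood below that of KO gCap-like cells, 386 CPM, and above that of KO aCap-like cells, 102 CPM, with intervals apart. Ltbp4 stood at 30.3 CPM (18.5 to 46.8) in the cluster and 29.7 CPM (20.5 to 41.5) in KO gCap-like cells, with overlapping intervals.

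Within single cells, several of the genes were found together. The median number of the 10 genes with a UMI was 9 per adventitial-type fibroblast, 6 per alveolar-type fibroblast and 5 per smooth muscle-like cell in both libraries. It was 4 in KO and 3 in WT arterial-like cells, the same in venous-like cells, and 1 in gCap-like cells of both. These numbers were taken without thinning, and depth differed between the classes. The median UMIs per cell were 12810.5 in adventitial-type, 7422 in alveolar-type and 8008 in smooth muscle-like cells. They were 4715 in arterial-like, 6682 in venous-like and 3748 in gCap-like cells. Eln and Lox had a Pearson correlation on log-scaled counts of 0.83 across 33 KO and 0.35 across 60 WT alveolar-type cells, of 0.62 across KO and 0.33 across WT adventitial-type cells, and of 0.17 across KO and 0.0019 across WT smooth muscle-like cells. These describe cells of 1 library each. In adventitial-type fibroblasts, Eln and Mfap4 correlated at 0.63 across 51 KO cells and 0.64 across 67 WT cells, whereas in alveolar-type fibroblasts the values were -0.42 in KO and 0.07 in WT. In arterial-like cells, Fbln2 and Fbln5 correlated at 0.53 across 21 KO cells and 0.62 across 74 WT cells, and 42.9% of KO and 25.7% of WT cells had both.

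The genes with the most similar class profiles were found among 7647 genes over 22 profiles, which share libraries and depths, by Pearson correlation of log2(CPM + 10). For Eln these included Ltbp1 and Enah, at 0.90 each. For Fbn1 they were Gstm5, Col5a2 and Bgn, and for Mfap5 Srpx, Osr1 and Medag, the first at 0.98. Mfap4 was most like Cdh11, Ogn and Pdgfra, and Ltbp4 most like Fstl1, Tshz2 and Kazald1, the first at 0.88. For Fbln1 they were Prrx2, Abcc9 and Entpd2, for Fbln2 Cthrc1, Pi16 and Spock2, and for Fbln5 Cd59a, Spsb1 and Igfbp5, the first at 0.85. Lox was most like Pappa, Adamts15 and Smtnl2, the first at 0.96, and Loxl1 most like Crispld2, Epha3 and Sod3, the first at 0.97.

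Other genes of elastic fibres were taken from 4 lists. Of 21 genes for assembly proteins and microfibril partners, 19 were tested between KO and WT adventitial-type fibroblasts, and 3 were higher and 1 lower in KO. Over all genes tested, 2.81% were higher and 3.69% lower in that class, and 2.15% and 3.72% in smooth muscle-like cells. Adamtsl2, whose product binds fibrillin and latent TGF-beta binding proteins, was at 126 CPM in KO and 17.6 CPM in WT, a ratio of 7.14. Mgp, the matrix Gla protein that limits calcification, was at 27249 CPM in KO and 11159 CPM in WT, a ratio of 2.44. Mfap2, the partner of Mfap5 on microfibrils, had a ratio of 1.91, and Tnxb, a matrix tenascin, one of 0.647. Between KO and WT smooth muscle-like cells 16 were tested: Mgp had a ratio of 2.26 and Vcan, a large proteoglycan, one of 4.35, both higher in KO, and Tnxb was lower at 0.392. Of 12 elastases and their inhibitors, 8 were tested in each class. Timp1, an inhibitor of metalloproteinases, was higher in KO, at 685 CPM against 144.5 CPM in WT adventitial-type fibroblasts, a ratio of 4.74, and at a ratio of 6.02 in smooth muscle-like cells. Timp3, the matrix-bound inhibitor, was lower in both, at 0.588 and 0.619. Among 8 genes for cell contacts and receptors, 7 were tested in each class: Itgb5 was lower in KO adventitial-type fibroblasts at 0.581, and the fibronectin receptor genes Itga5, at 2.38, and Itgb1, at 1.52, were higher in KO smooth muscle-like cells. Of 6 TGF-beta ligands and receptors, all 6 were tested in both classes and 0 were called.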

How the data were processed

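The deposited counts are UMIs per gene and barcode, which the authors made before deposit; the submitters' processing notes name Cell Ranger 3.0.1 and mm10. The number of animals per library and the settings of the counting step are not given here. The 10 genes and all lists were chosen with earlier results of these data known.

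Barcodes were kept from 500 genes upward and up to a mitochondrial share of 10% (scanpy 1.11.5), and Scrublet marked 12 KO and 37 WT cells as doublets, which were removed. Leiden clustering used 1513 variable genes, with 1584 genes that differed between the libraries, the 10 genes and the lists left out (leidenalg 0.10.2, igraph 0.11.9; 30 components, 20 neighbours, resolution 1), and gave 19 clusters, with endothelial cells clustered again by themselves. Names came from 155 markers found in the files, none of them among the 10 genes, and needed at least 3 detected markers; others stayed unnamed. UMIs were summed per class and library. Levels have exact Poisson, ratios exact conditional binomial and shares exact Clopper-Pearson intervals, and the limit for a count of 0 is a floor of 3 counts (scipy 1.17.1; 95%, counting error only). KO and WT were called only in classes with at least 50 cells in each. Shares were also taken after thinning each cell to 1500 UMIs. All 10 genes are named; of other lists at most 4 called genes with the largest ratios per list and comparison were named, and per gene the 3 with the most similar profile, of which 1 is not reported here. The call rule was tested on Poisson counts simulated from class sums. These hold no spread between cells or animals, so the test could not show how the rule copes with such spread. Alternatives were other cell filters, clusters, averages and folds, thinning, the 5 top cells left out, the KO cells of each sex, and cells with markers of other types or shared barcodes left out. Identifiers were matched to GENCODE M21 for 98.7% of genes. Promoters are RefSeq's, with 9 entries used for 5 of the 10 genes. Entries of these genes on chromosome 18, where Lox lies, were left out.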

Additional observations from a re-analysis of the deposited data

Results flagged for a closer look

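The ratios of KO over WT for Eln and Mfap4 lay on opposite sides of 1 in different classes, with intervals that exclude 1, although neither gCap-like value passed the call rule. The ratio of KO over WT for Eln was 2.59 in adventitial-type fibroblasts and 2.93 in smooth muscle-like cells, with intervals above 1, and 0.83 in gCap-like cells, with an interval below 1. For Mfap4 it was 1.65 in adventitial-type fibroblasts and 2.49 in smooth muscle-like cells, against 0.463 in gCap-like cells. With 1 library in each group, the difference between the classes was not tested. Mfap4 in gCap-like cells rests on 12 KO and 67 WT UMIs, and all 12 lay in 5 KO cells. In the Esm1-led gCap-like cluster Eln stood at 393 CPM in 31 KO cells and 215 CPM in 190 WT cells.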

How the results depend on the processing

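Each comparison was repeated under other cell filters, averages, thresholds, clusterings and subsets of cells. Of 236 counts of genes called, 219 stayed within 1.5 times and 17 did not. Of 953 ratios of single genes, 898 kept their call or stayed uncalled, 38 lost the call, 12 gained one and 5 reversed. Direction was checked only for genes called in the main setting, and ratios with 0 UMIs on a side were left out. With a stricter filter of 1000 genes and 5% mitochondrial UMIs, 1 gene, Eln (log2 ratio 0.93), was higher in WT smooth muscle-like cells than in fibroblasts, and 0 genes were lower in KO gCap-like cells. With a looser filter of 200 genes and 20% mitochondrial UMIs, 2 genes were lower in KO gCap-like cells. After thinning to 1500 UMIs, 0 genes were lower in KO gCap-like cells, 1 was higher and 0 lower in KO smooth muscle-like cells, and 2 were lower in the cluster that was almost wholly KO, where fewer UMIs were counted. At 2-fold, 0 were lower in KO gCap-like cells, and 3 were higher and 1 lower in KO smooth muscle-like cells. Without the 5 cells with most UMIs, 3 were higher and 1 lower in KO smooth muscle-like cells. There, 1 was lower by the mean over cells, 1 with clusters from all variable genes and 1 in KO cells with Xist alone, and 3 were higher in KO cells with Y-linked UMIs alone. In KO adventitial-type fibroblasts with Xist alone 1 gene, Fbn1, was lower, and Fbln2 became higher (log2 ratio 0.73), as it did in smooth muscle-like cells (2.40). In smooth muscle-like cells Mfap4 reversed after thinning (log2 ratio -0.12). Mfap5 reversed by the mean over cells (-0.12), after thinning (-0.13), without the 5 top cells (-0.77) and in KO cells with Y-linked UMIs alone (-0.017). Ranks of classes covered only those of at least 20 cells in a setting. Under the stricter filter the highest ranked KO class became smooth muscle-like for Eln and adventitial-type for Mfap4 and Lox. Eln, Mfap4 and Lox were still called lower in KO adventitial-type than alveolar-type cells there, so the alveolar-type class was no longer ranked. Under the looser filter the highest KO class of Fbln5 became venous-like, which had 13 KO cells in the main setting and was not ranked there. Where no cause is given, the cause was not tested. Leaving out cells with AT2 or mesothelial markers and shared barcodes was chosen after seeing the data, and each count of calls stayed within 1.5 times. The subset with Xist alone was not used as an alternative for the capillary classes, with 7 gCap-like and 8 aCap-like KO cells. No paired analysis was possible because each group has 1 library.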
